A study of Drosophila melanogaster with 30 samples.

Results

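The elements described here are the 31 candidate regulatory windows whose name begins BiTS-ChIP_K4me1+K27me3+K27ac, out of 591 elements listed over the pools of both rounds of a silencer screen in Drosophila melanogaster embryos. Members were chosen by that name alone, and they are called below by the number at the end of it. The round 1 pool listed 576 elements, all 31 members among them, and the round 2 pool listed 188 elements with 5 members, 13, 73, 134, 190 and 320. Each element sat in a reporter construct with GFP, and males transformed with constructs drawn at random from the pool were mated with twi:CD2 females. All embryos came from this cross, were collected over 2.25 hours and were aged for 11 hours at 18 degrees C. The twist (twi) regulatory sequence directs the CD2 marker to mesoderm, so that an antibody to CD2 separates mesodermal cells (CD2+) from the rest (CD2-). Round 1 had 18 libraries, 6 each from low-GFP CD2+ cells, CD2+ control cells and CD2- control cells. Round 2 had 12 libraries, 6 each from low-GFP CD2+ and CD2+ cells, and no CD2- sort was analysed here for it. Embryos were collected on 6 days per round, and each day gave 1 library per group. The first 3 days make up experiment 1 and the last 3 make up experiment 2. A library counts inserts amplified by nested PCR from the genomic DNA of sorted cells, so a value is the abundance of an element among the recovered inserts and not a transcript level.

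BiTS-ChIP stands for batch isolation of tissue-specific chromatin for immunoprecipitation, a method that profiles histone marks in nuclei of 1 sorted tissue, and the members' names give 3 such marks. H3K4me1 is typical of enhancers, H3K27ac of active enhancers and promoters, and H3K27me3 is laid down by Polycomb repressive complexes at silenced genes. A silencer lowers transcription from the promoter it acts on. In this design a strong enhancer drives GFP broadly, and mesodermal cells that carry an active silencer are sorted as low-GFP CD2+. The marks themselves, the genomic positions and the sequences of the windows were not analysed here, so the names could not be checked against chromatin data.

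Recovery split the class before any comparison could be made. In round 1, 20 of the 31 members had any count and 19 passed the filter on low counts (at least 10 counts in enough libraries). In the whole pool, 416 of 576 elements had any count and 358 were tested. The 11 members with no count in any of the 18 libraries were 13, 73, 80, 115, 134, 162, 172, 190, 212, 215 and 322. Element 320 had 1 count in 1 CD2- library. With 3 counts taken as the floor, an element at 0 could still reach 0.400 to 1.72 CPM, a limit that covers counting error only. CPM is the count scaled to library size.

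Round 2 brought back members that round 1 had not recovered. The 5 members relisted in round 2 were all among the 12 that stayed under 20 counts in every round 1 library, and 0 of the 19 recovered members were relisted. Over all elements, 130 of 183 elements under 20 counts throughout round 1 were relisted, and 43 of 393 of the others. Elements 13, 73, 134 and 320 were recovered and tested in round 2, and element 190 had 3 counts in 1 low-GFP library and 2 counts in 1 CD2+ library. Members 80, 115, 162, 172, 212, 215 and 322 had no count in either round. In all, 23 of 31 members were tested in 1 round or the other, and 0 in both, so no member has a value from a second round to set beside its first.

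The 12-base barcodes that identify the elements were all distinct, and members' barcodes lay 3 to 4 bases from the nearest other barcode in the round 1 pool. Their mean GC content was 54.8%, against 52.9% over the pool. Tested members had a mean of 55.3% and untested members 54.2%.

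Depth ran from 3399506 to 5934098 read 1 counts per library in round 1 and from 2928510 to 5488936 in round 2. The 10 most abundant elements held 30.4% to 57.7% of the counts in low-GFP libraries of round 1, 19.5% to 23.2% in CD2+ libraries and 17.9% to 27.3% in CD2- libraries. CPM values were therefore scaled by the trimmed mean of M-values (TMM). Even so, the fitted log2 fold change of low-GFP against CD2+ had a median of -0.64 over all 358 elements. That median was -1.18 with total counts and -0.42 with libraries scaled to the summed counts of the E. coli control elements. In round 2 that median was -0.20 (-0.72 and 0.40 under the same alternatives). Replicate libraries varied widely, with a fitted biological coefficient of variation of 1.46 in round 1 and 1.10 in round 2.

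Recovered members were a common part of the control libraries and a smaller part of the low-GFP libraries. Together they held 7.00 ± 0.899% of the counts in CD2+ libraries (mean ± SD, n = 6, range 5.67% to 8.36%) and 6.87 ± 0.658% in CD2- libraries (range 5.54% to 7.25%). In low-GFP libraries they held 2.55 ± 0.918%, with a range of 1.37% to 3.77% that did not overlap either control. This is a share of all counts, and no test was made of it. The E. coli control elements held 0.215% to 1.71% of low-GFP counts, 0.822% to 1.35% of CD2+ counts and 0.854% to 2.63% of CD2- counts. What part the dominant elements of low-GFP libraries have in the members' share was not tested.

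Single members came and went between days. Only 6 members, 96, 155, 205, 246, 262 and 389, had at least 20 counts in all 18 round 1 libraries, and the other 13 tested members fell under 20 counts in at least 1. Of the 114 pairs of a tested member and a library in each population, 5 were under 20 counts in low-GFP (4.39%), 21 in CD2+ (18.4%) and 20 in CD2- libraries (17.5%). Over all tested elements the shares were 12.2%, 22.7% and 21.9%. The difference between populations was not tested.

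Low-GFP CD2+ cells were first compared with CD2+ cells of round 1, the contrast that asks whether an element is enriched where mesodermal GFP is weak. Of the 19 members tested, 0 were called higher and 2 were called lower, elements 96 and 246 (edgeR quasi-likelihood test, Benjamini-Hochberg adjusted p under 0.05 over all 358 elements). Of all tested elements 12.3% were called higher and 8.38% lower. At an unadjusted p under 0.05 there were 4 of 19 members (21.1%) and 108 of 358 elements (30.2%). DESeq2 called 1 member higher and 3 lower, and 69 of all elements higher and 38 lower. The median log2 fold change of the members was -1.11, against -0.64 over all tested elements, and 14 of the 19 lay below 0. With the collection day as a replicate block the members' median was -0.65, and the all-element median of that fit is not given here. The middle of the class ran from -1.69 to -0.12 (lower and upper quartiles) and its extremes were -2.94 and 3.36.

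Against CD2- cells the same 2 members were called lower and 0 were called higher, with 13.4% of all tested elements called higher and 7.82% lower. Again 4 members had an unadjusted p under 0.05, as did 109 of 358 elements (30.4%). DESeq2 called 1 member higher and 1 lower, and 63 of all elements higher and 32 lower. The members' median was -0.86 beside -0.45 for all elements, and 15 of 19 lay below 0. With E. coli scaling the members' median was -0.49 beside -0.38 for all elements, and with total counts -1.51 beside -1.15. With the collection day as a replicate block, the members' median was -0.23, and the all-element median of that fit is not given here. Against both controls together 1 member, 153, was called higher and 3, elements 96, 246 and 389, were called lower, where 15.9% of all elements were called higher and 10.1% lower. All 3 comparisons share the low-GFP libraries, and the third shares both controls with the others.

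Element 96 had the lowest fitted fold change of the 19 members against CD2+. In low-GFP libraries it ranged from 1106 to 3290 CPM with a median of 1585 CPM. In CD2+ libraries the lowest, median and highest values were 8044, 10510 and 24597 CPM, and in CD2- libraries 7562, 7997 and 11534 CPM. Every low-GFP library was below every control library. Its mean abundance ranked 7 in CD2+ and 18 in CD2- libraries of the 576 elements, and 115 in low-GFP libraries. Its fitted log2 fold change was -2.94 against CD2+ (SE 0.40; edgeR adjusted p = 0.000132), which is 7.66-fold lower, and -2.33 against CD2- (SE 0.39, edgeR adjusted p = 0.00039), which is 5.02-fold lower. It was lower on 6 of 6 days in both comparisons. Within experiment 1 the values were -3.29 (edgeR adjusted p = 0.0152) and -2.71 (edgeR adjusted p = 0.0347), and within experiment 2, with 3 days per group, -2.74 and -2.09 at edgeR adjusted p = 0.0619 and 0.117.

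Element 246 was the most abundant member of both control sorts. It ranged from 9012 to 21003 CPM in CD2+ libraries with a median of 12649 CPM, and from 8999 to 17148 CPM in CD2- libraries with a median of 13168 CPM. In low-GFP libraries it ranged from 3246 to 7018 CPM with a median of 6296 CPM. The low-GFP range again did not overlap either control, and the 6 daily differences against CD2+ lay between -1.73 and -0.67 on the log2 scale. Its mean ranked 6 in both controls and 52 in low-GFP libraries. Its fitted log2 fold change was -1.27 against CD2+ (SE 0.33, edgeR adjusted p = 0.00994) and -1.19 against CD2- (SE 0.33, edgeR adjusted p = 0.0162), or 2.40-fold and 2.27-fold lower. These calls rested on single days: without day 3 the adjusted p (edgeR) was 0.125 and 0.124, and without day 1 it was 0.0542 against CD2-. Within experiment 1 the 2 values were -1.81 (edgeR adjusted p = 0.0547) and -1.64 (edgeR adjusted p = 0.09), and within experiment 2 they were -0.90 and -0.99 (edgeR adjusted p = 0.486 and 0.426). Processing mattered too. Of 11 alternatives other than leaving out a day, either experiment alone included, 8 kept the call against CD2+ and 6 the call against CD2-.

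The ratio of 96 to 246 within a library is free of the scaling between libraries. On the log2 scale that ratio averaged -1.73 in low-GFP, -0.12 in CD2+ and -0.54 in CD2- libraries. Between low-GFP and CD2+ libraries of a day it differed by -1.61 (SD 0.59, n = 6 days, range -2.34 to -0.97), and between low-GFP and CD2- libraries by -1.19 (SD 0.65). It was lower in low-GFP libraries on 6 of 6 days in both, so the depletion of these abundant members was unequal. The pair was set side by side after their values were seen, and no test was made.

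Element 389 lay lower in low-GFP libraries with weaker support. Its lowest, median and highest values were 178, 968 and 1341 CPM in low-GFP libraries. CD2+ libraries ran from 1524 to 5717 CPM (median 2534 CPM) and CD2- libraries from 452 to 3864 CPM (median 2723 CPM). The low-GFP range did not overlap CD2+ but did overlap CD2-, where 2 days, 3 and 5, were under the highest low-GFP value. Its log2 fold change of -1.98 against CD2+ missed the threshold (SE 0.71, edgeR adjusted p = 0.0556), as did -1.58 against CD2- (SE 0.69, edgeR adjusted p = 0.118). Against both controls together it was -1.78 (SE 0.64, edgeR adjusted p = 0.048). That call was lost under 7 of 10 alternatives other than leaving out a day. These were E. coli scaling (edgeR adjusted p = 0.147), no filter (0.0512), read 2 counts (0.0615), no experiment term (0.0505), the replicate block (0.0641) and either experiment alone. Within experiments 1 and 2 the values were -2.62 and -1.30 (edgeR adjusted p = 0.137 and 0.367). It was also lost whichever single day was left out (edgeR adjusted p from 0.0578 to 0.165). Of 11 alternatives other than leaving out a day, 2 called 389 lower than CD2+ and 1 called it lower than CD2-.

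Element 153 was the 1 member that was more abundant in low-GFP libraries on every day and without overlap against either control. It ranged from 3149 to 12297 CPM in low-GFP libraries with a median of 5114 CPM. In CD2+ libraries it ranged from 0.264 to 1808 CPM (median 557 CPM) and in CD2- libraries from 0 to 1165 CPM (median 730 CPM). The low ends of both controls come from day 6, when 1 count in CD2+ and 0 counts in CD2- (a floor of 0.757 CPM) stood beside 16119 counts in low-GFP cells. On the other 5 days the controls lay between 307 and 1808 CPM.

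The fitted log2 fold change of 153 was 3.36 against CD2+ (SE 1.29, edgeR adjusted p = 0.0775) and 3.53 against CD2- (SE 1.28, edgeR adjusted p = 0.0555), neither past the threshold. Against both controls it was 3.45 (SE 1.00, edgeR adjusted p = 0.0145), or 10.9-fold higher. Daily differences against CD2+ ran from 1.72 to 12.3 on the log2 scale, the highest being day 6. Without day 6 the value against CD2+ was 3.09 and passed the threshold (edgeR adjusted p = 0.00249), and so did 3.24 against CD2- (edgeR adjusted p = 0.00202). The call against both controls was lost without day 4 (edgeR adjusted p = 0.0506) or day 5 (edgeR adjusted p = 0.0603). Within experiment 1 the value against both controls was 2.40 (edgeR adjusted p = 0.0465), and within experiment 2 it was 4.40 (edgeR adjusted p = 0.146). Of 11 alternatives other than leaving out a day, 2 called 153 higher than CD2+ and 2 called it higher than CD2-. Against both controls, 9 of 10 such alternatives kept the call.

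Element 155, among the 3 most abundant members, was not called. It ranged from 889 to 8579 CPM in low-GFP (median 3343 CPM), from 723 to 10815 CPM in CD2+ (median 8360 CPM) and from 1039 to 15027 CPM in CD2- libraries (median 6507 CPM). All 3 groups overlapped, and day 2 held the lowest value of each. The fitted log2 fold change of 155 was -1.11 against CD2+ (SE 0.54; edgeR adjusted p = 0.174) and -0.86 against CD2- (SE 0.53, edgeR adjusted p = 0.309). With libraries scaled to total counts the first was -1.62 at an edgeR adjusted p of 0.039.

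The other 14 tested members of round 1 were not called in any comparison. Their log2 fold changes against CD2+ lay between -1.95, for element 201, and 0.48, for element 236, and against CD2- between -2.83, for element 214, and 0.86, for element 107. Standard errors over both comparisons ran from 0.46, for element 262, to 2.60, for element 343 against CD2-, so a change of several fold could have been missed for many of them. Element 262 had medians of 3363, 3652 and 3759 CPM in low-GFP, CD2+ and CD2- libraries, with log2 fold changes of -0.26 (SE 0.46) and 0.04 (SE 0.46). Element 107 was higher than CD2- on 6 of 6 days, in which 1 CD2- library held 0 counts, and higher than CD2+ on 4.

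Counting days, 3 of 19 members were lower than CD2+ on all 6 days (15.8%, against 12.6% of all tested elements) and 1 was higher on all 6 (5.26%, against 17.3%). Groups without overlap gave 3 members all lower and 1 all higher than CD2+, where 4.19% and 10.9% of all elements did so, beside the 8.38% called lower and 12.3% called higher. Against CD2- the counts without overlap were 2 lower and 1 higher, where 3.91% and 10.3% of all elements did so. The interaction of experiment with population was called for 0 of 19 members, at a lowest unadjusted p of 0.249, in an edgeR test that called 1 of 358 elements (14 at an unadjusted p under 0.05).

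CD2+ and CD2- controls of round 1 were compared to see whether the insert abundance of members differed between mesoderm and the remaining cells without selection on GFP. Inserts were counted in genomic DNA, so this comparison does not measure the activity of members in either tissue. No member was called in either direction, and the share of all elements called was 0% higher and 0% lower (edgeR). At an unadjusted p under 0.05 there were 0 members and 6 of 358 elements, and DESeq2 called 3 elements, none of them members. The members' log2 fold changes ran from -1.57 to 1.48 with a median of 0.29, beside 0.04 for all elements. Within each experiment alone the members' median lay below 0, at -0.13 and -0.17. For the 3 members called lower in low-GFP cells against both controls together, the values were 0.61 (SE 0.37) for 96, 0.08 (SE 0.33) for 246 and 0.40 (SE 0.68) for 389.

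The members' abundance and fold change were set side by side. Across the 19 members, mean log2 abundance in CD2- libraries and the log2 fold change of low-GFP against CD2+ had a Pearson r of -0.31 and a Spearman rho of -0.14. Across all 358 elements these were -0.50 and -0.27. The CD2- libraries do not enter the fold change, but all points share the same libraries and scaling.

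Related classes from the same pool were read in the same round 1 comparison of low-GFP with CD2+ cells. Of 21 tested elements named DHS+K27me3 (open chromatin with the Polycomb mark), 3 were called higher and 4 lower, with a median of -0.68. Of 13 numbered CRM elements (predicted cis-regulatory modules) 2 were called in each direction, with a median of -0.998. The 8 tested E. coli control elements had a median of -2.07, below that of the members (-1.11), with 7 below 0 and 0 called in either direction. The E. coli scaling used their summed counts, not this median. In round 2, 4 of 12 tested E. coli control elements were called lower and 0 higher, where 5.16% of all elements were called lower. Their median there was -0.68, with 11 below 0. Of the other 2 classes in round 2, 0 of 10 DHS+K27me3 elements were called. Of 9 numbered CRM elements, 1 was called in each direction. No test of a difference between these classes and the members was made.

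In round 2 the 4 tested members were compared between low-GFP CD2+ and CD2+ cells. None was called by edgeR, where 9.03% of all 155 tested elements were called higher and 5.16% lower. At an unadjusted p under 0.05 there was 1 member of 4, element 134, and 42 of 155 elements (27.1%). DESeq2 called 0 members, and 18 of all elements higher and 8 lower. The members' median was 0.34, beside -0.20 over all elements. With total counts the members' median was -0.25, beside -0.72 over all elements, and with E. coli scaling 0.89, beside 0.40. Its sign turned with total counts, with the replicate block (-0.22) and without day 6 (-0.42). The all-element medians of the last 2 fits are not given here. Together the 5 members held 1.07 ± 0.353% of low-GFP counts and 1.59 ± 0.403% of CD2+ counts (mean ± SD, n = 6), ranges that overlapped. The E. coli control elements held 6.76% to 10.7% of low-GFP and 16.7% to 19.7% of CD2+ counts in this round.

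Element 134 had values of 925, 544, 3044, 9530, 1862 and 1658 CPM in low-GFP libraries of days 1 to 6. In CD2+ libraries of the same days it had 4282, 2065, 10725, 10076, 8335 and 6803 CPM. It was lower in low-GFP cells on 6 of 6 days, but on day 4 the values nearly met and the groups overlapped. On the log2 scale the fitted difference was -1.43 (SE 0.64; edgeR adjusted p = 0.18). With the collection day as a replicate block it was -1.73 (edgeR adjusted p = 0.0214) and without day 4 it was -1.99 (edgeR adjusted p = 0.0455), both past the threshold. Within experiment 1 the value was -1.92 and within experiment 2 it was -0.74 (edgeR adjusted p = 0.275 and 0.771).

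Element 320, which was close to absent from round 1, was the most abundant member in round 2 low-GFP libraries. On days 1 to 6 it had 11292, 8395, 5719, 6.41, 4000 and 3542 CPM there, and 4954, 6610, 3143, 602, 596 and 1655 CPM in CD2+ libraries. Low-GFP values were higher on 5 of 6 days, and on day 4 the low-GFP library held 17 counts. The fitted difference on the log2 scale was 1.10, with an SE of 0.88 and an edgeR adjusted p of 0.458, and without day 4 it was 1.18 (edgeR adjusted p = 0.101).

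Day 4 was low for members 13 and 73 in the same low-GFP library. Element 13 had 5.65 CPM there (15 counts) and ranged from 287 to 6997 CPM on the other days, against 355 to 3169 CPM in CD2+ libraries. Element 73 had 9.05 CPM there (24 counts) and ranged from 561 to 4425 CPM on the other days, against 595 to 3382 CPM in CD2+ libraries. Both groups overlapped for both elements. The log2 fold changes were 0.75 for 13 (SE 1.12, edgeR adjusted p = 0.708) and -0.07 for 73 (SE 0.85, edgeR adjusted p = 0.973). In that library 18.7% of the tested elements were under 20 counts, the highest share among the 6 low-GFP libraries (lowest 4.52%). The interaction of experiment with population was called by edgeR for 0 of 155 elements in round 2 (2 at an unadjusted p under 0.05), and its lowest unadjusted p among members was 0.462.

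The authors' deposited tables compare low-GFP libraries with controls within each experiment. In the authors' deposited table for experiment 1 of round 1, 81 of 349 elements and 2 of 19 members had an adjusted p under 0.05. These were 153, with a log2 fold change of 2.54 (adjusted p = 0.00199) in the authors' deposited table, and 96, with -2.71 (adjusted p = 0.0296). For experiment 2, the authors' deposited table has 66 of 352 elements and 1 of 18 members below that threshold, again 153, with a log2 fold change of 4.50 (adjusted p = 0.000541). Element 96 has -2.47 there (adjusted p = 0.218 in the authors' deposited table). For round 2, the authors' deposited tables list 13, 73 and 134, and none has an adjusted p under 0.05 in either experiment. The authors' deposited log2 values for 134 are -1.91 and -0.77.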

How the data were processed

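The authors deposited, for each library, a table of read counts per barcoded element for read 1 and one for read 2. The authors also deposited 4 comparison tables with a log2 fold change and adjusted p-value per element. DESeq is named in the submitters' processing notes. The mapper, the mapping reference and the DESeq version were not given in the sources used here. Libraries were grouped by the labels' sorted population, and collection days by the dates in their titles; the series title carries a HiChIP tag, but the libraries are described as reporter inserts.

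Read 1 counts were tested with edgeR 4.0.16 in R 4.3.3: low counts were removed by filterByExpr (minimum count 10), libraries were scaled by TMM, and all libraries of a round entered 1 quasi-likelihood model with terms for population and experiment. Benjamini-Hochberg adjustment ran over every element tested, and calls were made under 0.05. The SE is the absolute log2 fold change over the square root of F, so it restates the test. CPM values are scaled by TMM, and daily log2 differences used a prior count of 2. The numbers of cells and template molecules are not known, and reads from PCR without molecular identifiers do not count independent molecules. The fit was tested on simulated data with independent libraries and the same spread for every element. The planted changes were larger than that of any member in the main fit. Changes of the members' size and correlation between libraries of a day were not simulated, so the simulation does not check the members' calls.

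Days pair the populations by date: deviations of same-day libraries correlated above 0.1 in 17 of 18 pairs in round 1 (median 0.223) and 6 of 6 in round 2 (median 0.476). Nothing states that days used separate transformant flies, so p-values measure the spread between collection days. The main model had no day term, so this is the spread between libraries of a population within an experiment. It is not the spread of same-day differences, and only the replicate block takes in the pairing.

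Alternatives were DESeq2 1.42.0, other scalings, filters, reads and model terms, and leaving out days. Members, classes and tests were chosen with earlier results of these data known. The members named were those called in any comparison, those tested in both rounds and, per round, the 3 with the highest mean CPM and the 3 with the lowest unadjusted p for low-GFP against CD2+. No sequence is printed, because neither the elements' coordinates nor their inserts were used here.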

Additional observations from a re-analysis of the deposited data

Results flagged for a closer look

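Among 28 groups of 6 libraries examined, 6 held a library whose gap to its nearest neighbour, as a share of the group's range, was above Dixon's critical value. For elements the gap and range were taken on log2 CPM with a prior count of 2, and for shares of counts on the percentage. Chance flags about 1 in 20 groups where values are independent and normally spread. Here some values lie near 0 counts and groups share libraries, so that rate is only a rough guide. Element 153 in round 1 had its day 6 library apart in both controls, at 0.264 CPM in CD2+ cells, with a median of 647 CPM on the other days, and at 0.0 CPM in CD2- cells, with a median of 824 CPM on the other days. Element 155 had 723 CPM in the CD2+ library of day 2, where the median of the other days was 8931 CPM. In round 2 the low-GFP library of day 4 stood apart for element 73, at 9.05 CPM against a median of 1815 CPM, and for element 320, at 6.41 CPM against 5719 CPM. The share of counts held by members in the CD2- library of day 4 in round 1 was 5.54%, where the median of the other days was 7.15%.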

How the results depend on the processing

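In the comparisons of low-GFP cells, elements 96, 153, 155, 246, 389, 134 and 320 kept their direction under every alternative run, and element 96 kept its call under all of them but experiment 2 alone, where it was lost against each control by itself. The number of members called lower than CD2+ was 4 with total counts, 1 within experiment 1, 0 within experiment 2 and 1 in a fit of only the groups compared, and 1 member was called higher with DESeq2 and in that last fit. Against CD2- the number called lower was 1 with E. coli scaling, with DESeq2, within experiment 1 and with only the groups compared, and 0 within experiment 2, and 1 member was called higher with DESeq2 and with only the groups compared. Against both controls experiment 2 alone gave 0 higher and 1 lower. Leaving out each day in turn gave 1 to 2 members lower and 0 to 1 higher in each of these 3 comparisons. Of all elements, 14 (experiment 1) and 6 (experiment 2) were called against CD2+ in place of 74, 9 and 0 against CD2- in place of 76, and 48 and 43 against both controls in place of 93; these fits hold 3 of the 6 days. The members' median against CD2+ was -1.91 within experiment 1, -1.75 with total counts and -0.65 with the replicate block. Against CD2- it was -1.51 with total counts, -1.45 within experiment 1, -0.53 with DESeq2, -0.49 with E. coli scaling and -0.23 with the replicate block. In round 2 it was 0.89 with E. coli scaling, -0.25 with total counts, -0.22 with the replicate block and -0.42 to 0.51 with days left out. Total counts moved the split of calls against CD2+ from 44 higher and 30 lower to 39 and 48, and against CD2- from 48 and 28 to 36 and 46. Against both controls that split went from 57 and 36 to 47 and 56. In round 2 it went from 14 and 8 to 8 and 17 with total counts and to 23 and 2 with E. coli scaling. In round 2 the replicate block gave 1 member lower, days left out 0 to 1, and all elements called were 8 in either experiment alone and 9 to 28 with days left out, in place of 22. The replicate block changed no other call of a named member than those given for 134 and 389.

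Between CD2+ and CD2- cells, where no member was called, DESeq2 called 3 elements, and the members' median was -0.13 and -0.17 within experiments 1 and 2 and 0.026 to 0.31 with days left out. Signs there turned for 246 with total counts (-0.0057), read 2 (-0.058), experiment 2 (-0.087) and days left out (-0.086 to 0.11). They turned for 153 with experiment 2 (-0.41), only the groups compared (-0.021) and days left out (-0.21 to 0.57), for 155 with experiment 2 (-0.25) and days left out (-0.11 to 0.34), and for 389 with experiment 2 (-0.16). In round 2 element 73 turned with E. coli scaling (0.51), no experiment term (0.14), experiment 1 (0.37) and days left out (-0.67 to 0.26), and element 13 with days left out (-0.17 to 0.85). The causes were not tested.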
